A study of Mus musculus with 11 samples.

Results

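Erythroid cells were examined in single-cell RNA sequencing libraries of mouse brain. They were selected by their transcripts: after limits of more than 500 detected genes, more than 1000 unique molecular identifiers (UMIs, 1 per captured transcript) and under 25% mitochondrial UMIs, a cell was a member when the 4 adult haemoglobin genes (alpha chains Hba-a1 and Hba-a2, beta chains Hbb-bs and Hbb-bt) made up at least 50% of its UMIs and at least 1 Alas2 UMI was present. Of 132,437 cells that passed the limits in 11 libraries, 3729 were members. Haemoglobin and Alas2 therefore chose these cells, so their levels, the number of members and the levels of members beside other cells are given as descriptions. The tests below are of the change with surgery.

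The study compared WT and Lrg1-/- mice after sham surgery or after middle cerebral artery occlusion and reperfusion (MCAO/R), a filament model of stroke, with 1 library per mouse. There were 3 libraries of sham + WT, 2 of MCAO/R + WT, 3 of sham + Lrg1-/- (replicates 1, 2 and 5) and 3 of MCAO/R + Lrg1-/- (replicates 1, 2 and 5), all made from the right brain with a 3′ droplet kit. The knockout is conventional, so Lrg1, a secreted leucine-rich glycoprotein, is missing from every cell rather than from a chosen type, and the WT and knockout mice came from different sources, so that genotype and source cannot be told apart. Lrg1 gave between 0 and 1 UMI in the 6 Lrg1-/- libraries and between 192 and 17,868 UMIs in the 5 WT libraries. No reperfusion time or age is given in the labels. In the methods the WT mice are young adult C57BL/6 males, younger than the Lrg1-/- mice. The knockouts were backcrossed to C57BL/6N, and their sex is not stated. Age therefore cannot be told apart from genotype either, and substrain and sex may differ as well. A red blood cell lysis buffer was applied to every suspension, and the study set aside clusters that carried microglial together with red blood cell markers, which are kept here.

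Red cells arise in bone marrow from precursors that fill with haemoglobin, expel the nucleus and enter the blood as reticulocytes, which still hold RNA while mitochondria and ribosomes are cleared. Alas2 is the erythroid form of the enzyme that begins haem synthesis. The adult brain makes no red cells, and circulating blood is a known source of such transcripts in brain suspensions.

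The genes of the selection rule are shown first, by the 250 bases upstream of their start sites (RefSeq, GRCm38.p6), since erythroid promoters are known for sites of GATA and Kruppel-like factors. The windows lay at chrX:150547167-150547416 (Alas2, plus strand), chr7:103827929-103828178 (Hbb-bs, minus strand), chr7:103813924-103814173 (Hbb-bt, minus strand) and chr11:32283422-32283671 (Hba-a1, plus strand), each printed 5′ to 3′ on the gene's strand. Capitals mark matches, on either strand, to the GATA-type letters AGATAA, its variant AGATAG, the variant TGATAA or the variant TGATAG, and to CACCC.
Alas2: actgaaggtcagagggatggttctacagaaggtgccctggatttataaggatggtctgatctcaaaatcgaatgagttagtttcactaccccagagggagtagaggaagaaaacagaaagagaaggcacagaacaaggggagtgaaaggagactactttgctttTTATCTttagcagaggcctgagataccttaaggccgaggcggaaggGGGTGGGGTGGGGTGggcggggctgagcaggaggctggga
Hbb-bs: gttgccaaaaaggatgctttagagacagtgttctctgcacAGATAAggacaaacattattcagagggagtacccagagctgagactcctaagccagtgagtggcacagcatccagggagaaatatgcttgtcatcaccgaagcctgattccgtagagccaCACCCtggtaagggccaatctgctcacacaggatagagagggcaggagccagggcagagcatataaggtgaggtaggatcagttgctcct
Hbb-bt: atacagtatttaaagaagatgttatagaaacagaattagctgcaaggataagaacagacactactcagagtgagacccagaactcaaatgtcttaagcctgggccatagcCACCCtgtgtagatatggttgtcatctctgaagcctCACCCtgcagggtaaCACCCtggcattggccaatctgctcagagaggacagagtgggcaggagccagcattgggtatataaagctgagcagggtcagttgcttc
Hba-a1: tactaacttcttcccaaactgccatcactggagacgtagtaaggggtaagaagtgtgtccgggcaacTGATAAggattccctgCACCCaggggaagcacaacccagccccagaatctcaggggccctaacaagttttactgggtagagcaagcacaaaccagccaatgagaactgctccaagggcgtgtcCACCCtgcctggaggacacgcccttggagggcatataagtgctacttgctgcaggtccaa
The Alas2 window held 1 GATA-type match and 3 CACCC matches that lie end to end on the other strand, Hbb-bs held 1 and 1, Hbb-bt held 0 and 3, and Hba-a1 held 1 and 2. Such letters are common: of 32,851 promoter windows in the RefSeq table, 26.5% held a GATA-type match and 52.0% held CACCC. The table's Hba-a1 and Hba-a2 windows were identical over all 297 bases compared, with 1 window shifted by 3 bases. The transcripts of these genes were not compared, so how reads were assigned between them is not known and their separate levels are uncertain.

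Nearly all erythroid members came from the knockout libraries. Together the 6 Lrg1-/- libraries held 3725 members among 76,919 cells (4.84%), and the 5 WT libraries held 4 among 55,518 (0.00720%). In sham + Lrg1-/- the members were 203 of 9468 cells (2.14%) in replicate 1, 122 of 5669 (2.15%) in replicate 2 and 107 of 3249 (3.29%) in replicate 5. In MCAO/R + Lrg1-/- they were 154 of 6438 (2.39%), 2163 of 17,914 (12.1%) and 976 of 34,181 (2.86%). The share in MCAO/R + Lrg1-/- replicate 2, with a 95% exact interval of 11.6 to 12.6%, stood above those of the other 5, which lay between 2.14 and 3.29% and overlapped between surgeries, and this library alone gave 58.0% of all members. Intervals cover counting error only, not the spread between mice.

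**Figure D1:**
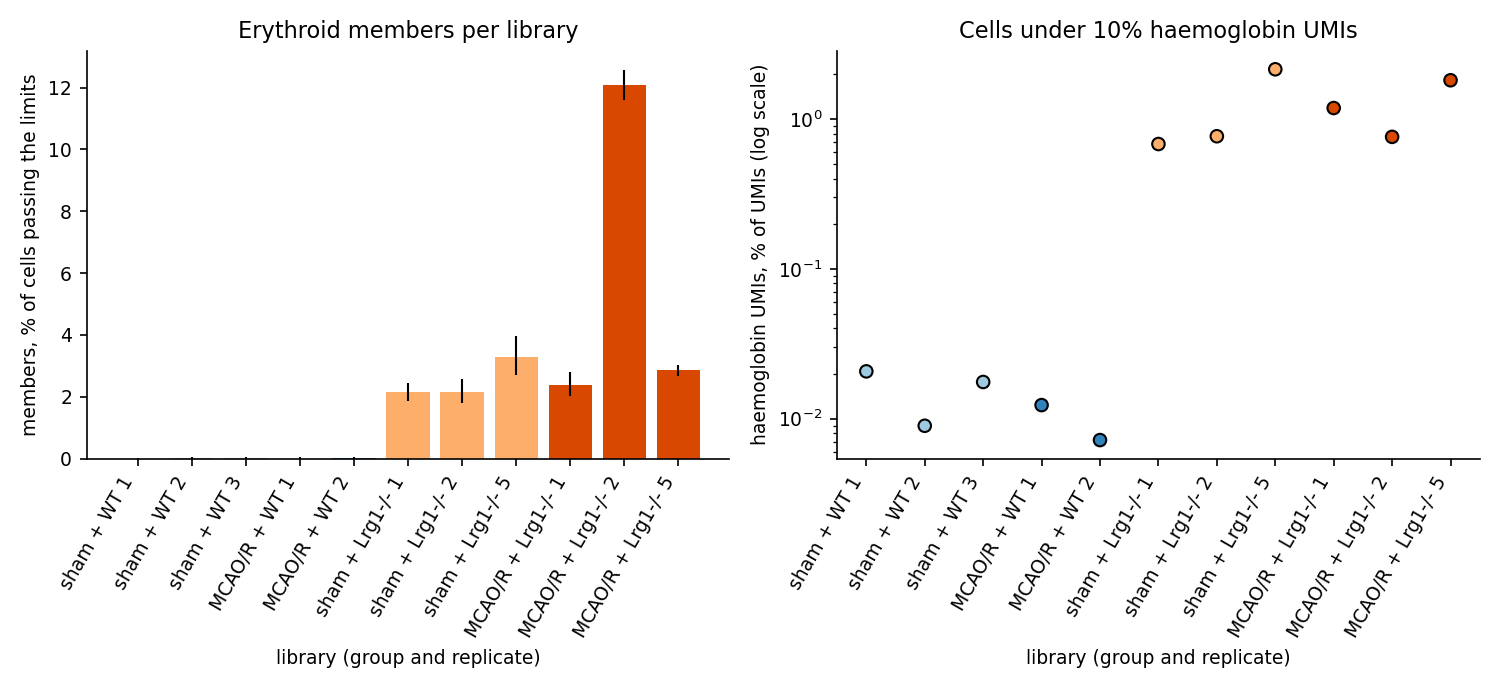
Left, members as a percent of the cells that passed the limits in each of the 11 libraries, with 95% exact binomial intervals. Right, haemoglobin UMIs as a percent of all UMIs in cells under 10% haemoglobin, on a log scale. The 6 Lrg1-/- libraries stand above the 5 WT libraries in both panels, and MCAO/R + Lrg1-/- replicate 2 holds the tallest bar at 12.1%.

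The WT libraries held 0, 1 and 1 members after sham surgery and 0 and 2 after MCAO/R. A count of 0 allows a share of up to 0.0217% in sham + WT replicate 1 and up to 0.0302% in MCAO/R + WT replicate 1. The 4 WT members had 54.7, 60.6, 65.8 and 90.6% haemoglobin UMIs and between 10 and 19 Alas2 UMIs. The first 3 of these also had at least 1640 detected genes, well above the median knockout member, while the cell of 90.6% had 906. With so few WT cells, members could not be compared between genotypes in expression.

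Haemoglobin transcripts were also more frequent outside the members in the knockout libraries. In cells under 10% haemoglobin they made up 0.682, 0.769 and 2.15% of UMIs in sham + Lrg1-/- and 1.19, 0.761 and 1.82% in MCAO/R + Lrg1-/-, against 0.00719 to 0.0207% in the WT libraries. The genotypes did not overlap. Alas2 itself was present in 1.22 to 12.3% of cells with at least 3 endothelial markers in the knockout libraries, cells that should lack it, and in 0.535 to 1.05% of those of the WT libraries, where these cells had medians of 4395 to 9621 UMIs in Lrg1-/- and 4795 to 6329 in WT, with 3 knockout libraries deeper than every WT library. The highest shares, 12.3 and 9.17%, were in MCAO/R + Lrg1-/- replicates 2 and 5, whose endothelial-marked cells had medians of 5959 and 4395 UMIs. Members, in which the rule required Alas2, carried a median of 8 Alas2 UMIs in 4818 UMIs.

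The limits on genes and UMIs set how many erythroid cells were seen. Of 6622 barcodes with at least 50% haemoglobin UMIs, 2787 failed a limit, and 2676 of these failed only the limit on genes. The loss was uneven. In sham + Lrg1-/- replicates 1, 2 and 5 it was 352 of 572, 147 of 275 and 127 of 234 such barcodes. In MCAO/R + Lrg1-/- replicates 1, 2 and 5 it was 19 of 184, 1232 of 3425 and 903 of 1921. Member shares and the comparison of surgeries therefore rest on unlike losses. With more than 300 genes in place of more than 500, the members numbered 5758 in Lrg1-/- and 7 in WT. Another 1702 cells held 25 to 50% haemoglobin, and 106 cells above 50% had no Alas2 UMI. Near the haemoglobin limit, the 54 members of 50 to 51% had medians of 1183 genes and 4776.5 UMIs, and the 50 cells of 49 to 50% with Alas2 had medians of 1163 genes and 4356 UMIs. Members with a single Alas2 UMI numbered 118, with medians of 2530 UMIs and 60.04% haemoglobin, against 2297.5 UMIs and 57.1% in the 106 cells without one.

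Members were cells of few genes. The median number of genes was 605, 652 and 730 after sham surgery and 694, 764 and 651 after MCAO/R, in the order of replicates 1, 2 and 5 used throughout for the Lrg1-/- groups. The median UMI total was 6129, 7096 and 9756 after sham surgery and 6644, 5149 and 3477.5 after MCAO/R, so that replicate 5 of each surgery stood at the ends. Median haemoglobin was 80.1, 78.6 and 77.9% in sham and 77.7, 76.7 and 70.0% in MCAO/R libraries, and the surgeries did not overlap in this measure, which the rule used. Mitochondrial UMIs had medians of 0.782 to 1.29% in members, below the 2.72 to 3.94% of other cells of the same libraries, but haemoglobin is part of that denominator. Of the non-haemoglobin UMIs, mitochondrially encoded genes made up 3.86 to 6.33% in members and 3.25 to 4.09% in other cells, higher in members in 6 of 6 libraries. Among members, 125 shared a barcode sequence with another library and 61 fell among the 6% of cells with the highest doublet scores, 50 of them in MCAO/R + Lrg1-/- replicate 2.

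**Figure D2:**
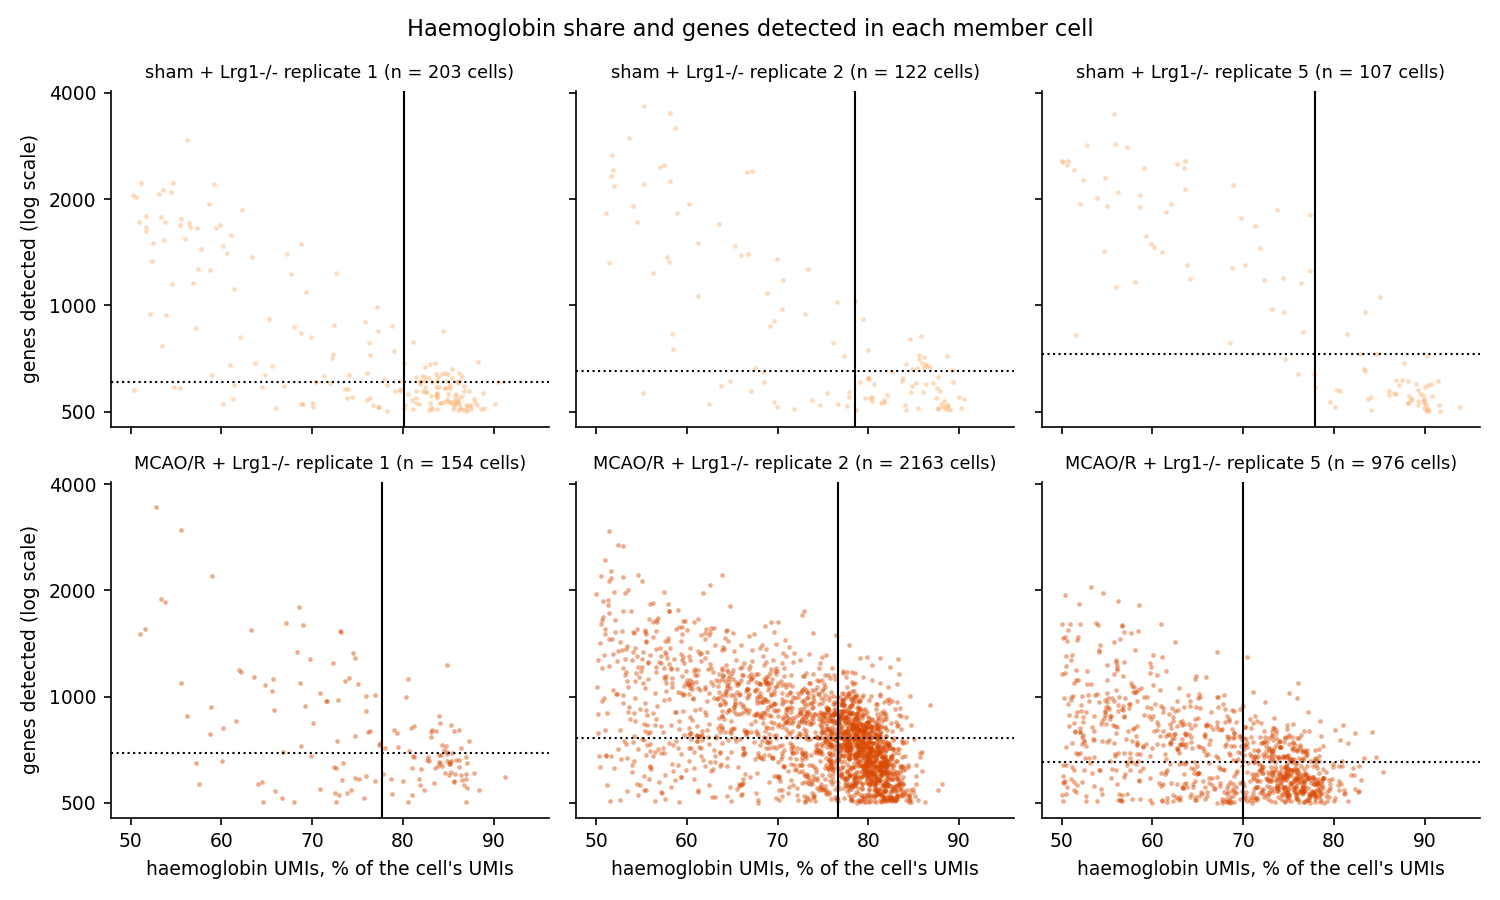
Each point is 1 member of a Lrg1-/- library, with haemoglobin UMIs as a percent of the cell's UMIs on the horizontal axis, genes detected on a log vertical axis and a vertical line at the library's median. Cells of higher haemoglobin share carry fewer genes, and MCAO/R + Lrg1-/- replicate 5 has its median at 70.0%, to the left of the others.

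The members formed a graded range. By haemoglobin share, 923 knockout members lay at 50 to 65%, 1970 at 65 to 80% and 832 at 80% or more, with median gene numbers of 940, 722 and 616. Median non-haemoglobin UMIs were 1657, 1129.5 and 957 across these bands, and high doublet scores numbered 51, 10 and 0. The median mitochondrial share was 1.60, 0.895 and 0.631% of all UMIs but 3.78, 3.56 and 3.68% of non-haemoglobin UMIs. Bpgm, which makes the 2,3-bisphosphoglycerate that lowers oxygen affinity, averaged 6.203, 10.8 and 12.04 UMIs per cell. Mkrn1, a ubiquitin ligase, averaged 4.71, 7.77 and 8.74. By contrast, Ttr, the transthyretin of choroid plexus, averaged 73.0, 25.5 and 22.5 UMIs per cell, and C1qa, a complement chain of microglia, 7.56, 4.39 and 2.73. Per 1,000,000 non-haemoglobin UMIs, as a mean over libraries, Bpgm was at 2288, 5370 and 10,941, Ttr at 43,998, 25,813 and 21,469 and C1qa at 3001, 3345 and 2800, so C1qa did not fall steadily on this scale. Members of 80% or more were 50.2, 45.1 and 48.6% of the members in sham and 45.5, 24.2 and 3.07% in MCAO/R libraries.

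Transcripts of other brain cells were present in every member. Ttr was detected in 99.9 to 100% of members in each knockout library, at median counts of 20, 20 and 28 UMIs per cell in sham and 24, 24 and 10 in MCAO/R libraries. Endothelial-marked cells of the same libraries, which should lack Ttr, had medians of 18, 20, 22, 25.5, 19 and 9 UMIs, close to those of members. C1qa, C1qb and C1qc together had medians of 5, 7, 8, 6, 9 and 10 UMIs in members and of 3, 4, 3, 5, 6 and 8 in endothelial-marked cells, higher in members in 6 of 6 libraries, although members had medians of 992.5 to 1557 non-haemoglobin UMIs and endothelial-marked cells of 4366.5 to 9607.5. At least 2 microglia markers were seen in 3713 of the 3729 members, at least 2 oligodendrocyte markers in 2849, choroid plexus epithelium markers in 2492 and endothelial markers in 1918. Whether these came from free RNA or from cells captured together was not tested.

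Apart from haemoglobin, members carried a set of transcripts known from late red cells, beside many at the level of other cells. Levels in these paragraphs are UMIs per 1,000,000 non-haemoglobin UMIs (unscaled CPM), and members were set beside cells under 10% haemoglobin of the same library. Of 3039 genes with at least 10 UMIs in the members of every knockout library, 43 (1.41%) were at least 5-fold higher in members in all 6 libraries, 8 at least 100-fold (0.263%), and 2323 (76.4%) lay within 2-fold either way in all 6. Since the rule chose the cells, these counts describe them. Alas2, which the rule required, is among both the 43 and the 8, and the limit of 10 UMIs was set in members only. RefSeq promoter windows existed for 31 of the 43 genes, of which 12 (38.7%) held a GATA-type match and 17 (54.8%) CACCC, against 29.7 and 54.5% of all 27,025 genes in the table. Alas2 is among the 31 and counts in both shares.

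The erythroid lists as sums were higher in members for most functions. Haem synthesis genes made up 0.580 to 0.719% of non-haemoglobin UMIs in sham and 0.633 to 1.04% in MCAO/R members, against 0.0178 to 0.0245% in other cells. Most of this was Alas2, which the rule required, and without it the list made up 0.0796 to 0.102% in sham and 0.0995 to 0.171% in MCAO/R members, against 0.0158 to 0.0223%. Membrane genes made up 0.115 to 0.159% of sham and 0.149 to 0.227% of MCAO/R members, against 0.0313 to 0.0376%. Members were higher in 6 of 6 libraries for these lists and for those of iron transport, organelle clearance, antioxidant and metabolic genes. The iron sum was mostly Fth1 and Ftl1, at medians of 9280 and 6781 unscaled CPM. Their median ratios to other cells were 1.31 and 2.65. The metabolic sum was mostly Bpgm, at 5444. Of its other genes, Car2 had a median ratio of 1.97 and Car1 at most 2 UMIs per library. Pklr had 0 UMIs, and Hk1, Slc2a1, Eno1, Pgk1, Gapdh and Pnp had median ratios of 0.627 to 0.959. For the sum of the 6 progenitor genes, members were higher in 0 of 6 libraries. The largest part of that sum was Cd34, at a median of 91.4 unscaled CPM. Kit and Myb had at most 21 and 8 UMIs in a library, and the ratio of Kit to other cells reached 1.54.

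Among the haem enzymes outside the rule, Fech stood highest above other cells. Alas2, which the rule required, was at 5849, 5007 and 6173 unscaled CPM in sham and 8834, 6904 and 5333 in MCAO/R libraries, against 8.67 to 46.9 in other cells. Fech, which inserts iron into haem in the last step, was at 821, 614, 816, 1326, 1492 and 808, a median of 25.2-fold above other cells. The other 6 enzymes lay near the level of other cells, with median ratios from 0.679 for Uros, seen in at most 11 UMIs of a library, to 1.87 for Urod. Slc25a37, the mitochondrial iron importer, was a median of 32.8-fold higher in members, and Ncoa4, which delivers ferritin for breakdown, 8.31-fold. The transferrin receptor Tfrc, high in erythroid precursors, was at 26.7 to 147 unscaled CPM against 26.9 to 109 in other cells.

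Membrane genes ranged widely. Slc4a1, the band 3 anion exchanger, was at 135, 99.0 and 174 unscaled CPM in sham and 241, 225 and 122 in MCAO/R libraries, a median of 364-fold above other cells, and Tspo2, an erythroid translocator protein homologue, 330-fold. Over libraries these ratios ran from 130 to 1991 and from 117 to 395. Other cells held only 0.0497 to 0.936 and 0.199 to 1.05 unscaled CPM of the 2 genes. Epb41, protein 4.1, was at 455 to 773 unscaled CPM. For Gypc, Xk, Icam4 and Aqp1 the median ratio to other cells was below 1. Surgeries overlapped for Slc4a1, which lies, in the GENCODE annotation of GRCm38, at chr11:102348824-102366203.

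Genes of organelle clearance and ubiquitin made up 1.61 to 1.98% of non-haemoglobin UMIs in sham and 1.93 to 2.63% in MCAO/R members, against 0.367 to 0.439% in other cells. Trim10, a ubiquitin ligase family member of red cells, was a median of 559-fold higher than in other cells, Ube2l6, a conjugating enzyme for ubiquitin and ISG15, 109-fold, Mkrn1 50.9-fold and Ube2o, which directs ribosome removal in reticulocytes, 19.6-fold. The Trim10 ratio ran from 178 to 2230 over libraries, since other cells held only 0.0249 to 0.516 unscaled CPM. Bnip3l, the receptor for removal of mitochondria, was 9.04-fold higher, and the autophagy gene Gabarapl2 5.34-fold. The largest part of the list's sum was Ubb, at a median of 6605 unscaled CPM and a median ratio of 2.32. Ulk1, Fundc1 and Xpo7 lay near other cells, at median ratios of 0.865, 0.999 and 1.15. Alox15, a lipoxygenase of maturing reticulocytes, had 0 UMIs in all 6 libraries. Of the antioxidant genes Gpx1 was 7.16-fold, Cat, catalase, 6.73-fold, Blvrb, a flavin reductase, 6.65-fold and Prdx2 3.05-fold higher. Gpx4, Sod1, Txn1, Cyb5r3 and Gsr were below other cells, at 0.926, 0.909, 0.898, 0.825 and 0.740. Isg20 was 85.0-fold, Bpgm 74.6-fold and Tent5c, a poly(A) polymerase, 27.9-fold higher.

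**Figure D3:**
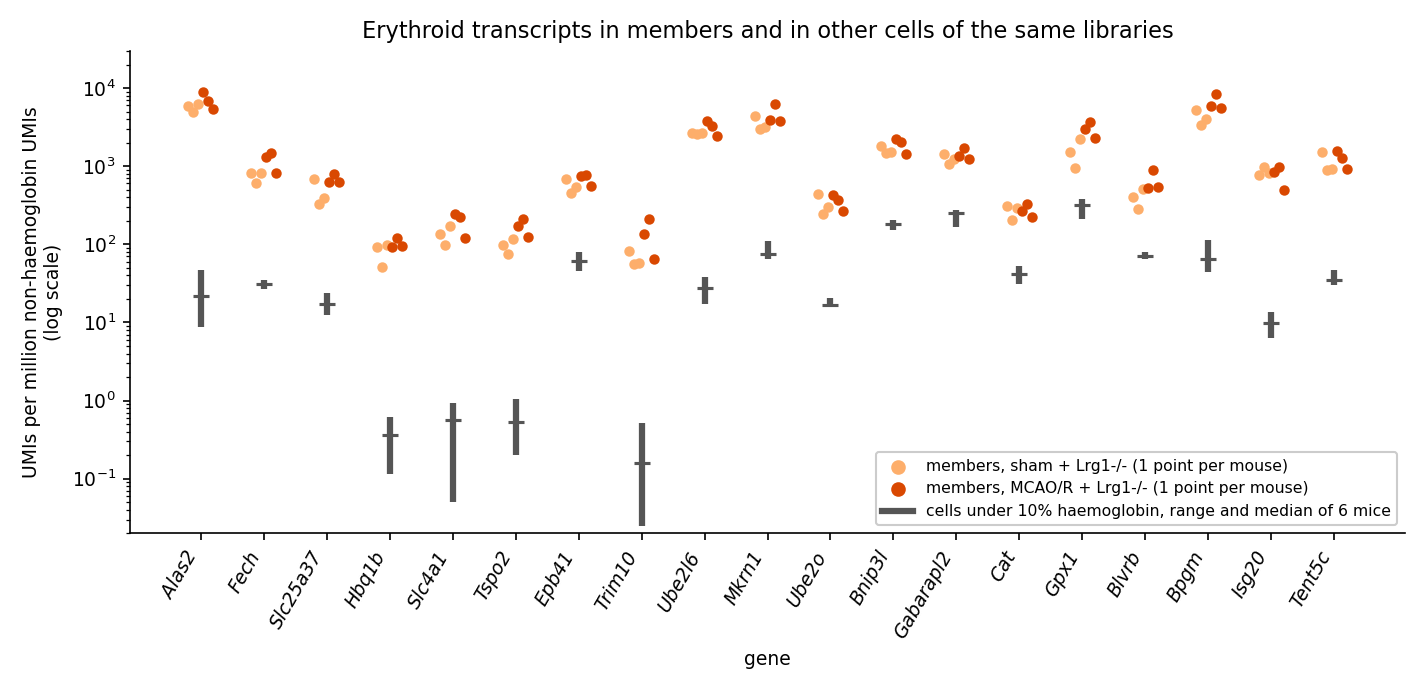
UMIs per 1,000,000 non-haemoglobin UMIs (log scale) of 19 erythroid genes, with 1 point per Lrg1-/- mouse for members and a grey bar for the range over the same 6 mice in cells under 10% haemoglobin. Every point lies above the bar of its gene.

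Several early erythroid genes were at or near 0 in members. In the 6 libraries Gata1, the master factor of erythroid genes, had 0, 0, 0, 1, 2 and 2 UMIs and Klf1 had 0, 0, 0, 0, 2 and 2 over all members. Gfi1b had 2 UMIs, both in MCAO/R + Lrg1-/- replicate 5, and the erythropoietin receptor Epor had 1, 1, 0, 0, 4 and 0. In other cells Gata1 was at 0.0249 to 0.0821 and Klf1 at 0.117 to 0.299 unscaled CPM, against up to 4.02 and 1.78 in members, so the members' counts are too low to set beside them. Lmo2, a bridging factor of the GATA1 complex that is also active in endothelium, was at 136 to 264 unscaled CPM, a median of 1.71-fold above other cells, and Zfpm1 and Tal1 had median ratios of 0.983 and 0.747. The transcription factor list as a sum was higher in members in 5 of 6 libraries, at 0.0343 to 0.0559% against 0.0325 to 0.0519%. The proliferation gene Mki67 had 1, 2, 0, 0, 10 and 2 UMIs. Cell cycle genes together made up 0.00903 to 0.0139% of non-haemoglobin UMIs in sham and 0.0178 to 0.0354% in MCAO/R members, within or near the 0.0109 to 0.0282% of other cells. Ube2c, a ubiquitin enzyme of mitosis that is also known in late erythroid cells and was picked out after its values were seen, was instead a median of 38.7-fold above other cells. Of the embryonic globins, Hba-x had 0 UMIs in every library and Hbb-y 3, 0, 0, 0, 7 and 0. The minor theta-like genes Hbq1a and Hbq1b were a median of 230-fold and 294-fold above other cells, where both stayed below 1 unscaled CPM. Their ratios ran from 93.1 to 351 and from 156 to 793 over libraries. Ahsp, the alpha-globin chaperone, was not analysed here.

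The balance of globin chains differed by a few percentage points between knockout libraries, and is described without a test since the rule used these genes. Alpha chains, from Hba-a1 and Hba-a2, made up 41.9, 43.6 and 43.4% of haemoglobin UMIs in sham members and 41.5, 41.3 and 37.5% in MCAO/R members. The groups did not overlap, with means of 43.0 ± 0.955% and 40.1 ± 2.25% (SD, n = 3 each) and a difference of -2.85 percentage points. Without MCAO/R + Lrg1-/- replicate 5 the difference was -1.55 points. The Hbb-bt share of beta-chain UMIs was 17.6, 15.8 and 16.9% in sham and 16.7, 18.1 and 15.7% in MCAO/R members, with a difference of 0.0801 points and overlapping surgeries. The Hba-a2 share of alpha UMIs, whose split between Hba-a1 and Hba-a2 is uncertain, was 44.0, 44.2 and 43.2% and then 44.3, 44.5 and 44.3%.

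The haemoglobin RNA of other cells had another beta composition. Hbb-bt made up 9.76 to 13.3% of beta UMIs in cells under 10% haemoglobin, lower than in the members of the same library in 6 of 6 libraries, by 3.45 to 7.86 points. Alpha shares in these cells, of 37.6 to 44.8%, lay within 1.90 points of the members' in each library. In WT cells under 10% haemoglobin the alpha share was 46.6 to 53.2%, above that of all knockout libraries. Those shares rest on 10,215 to 23,051 haemoglobin UMIs per library.

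**Figure D4:**
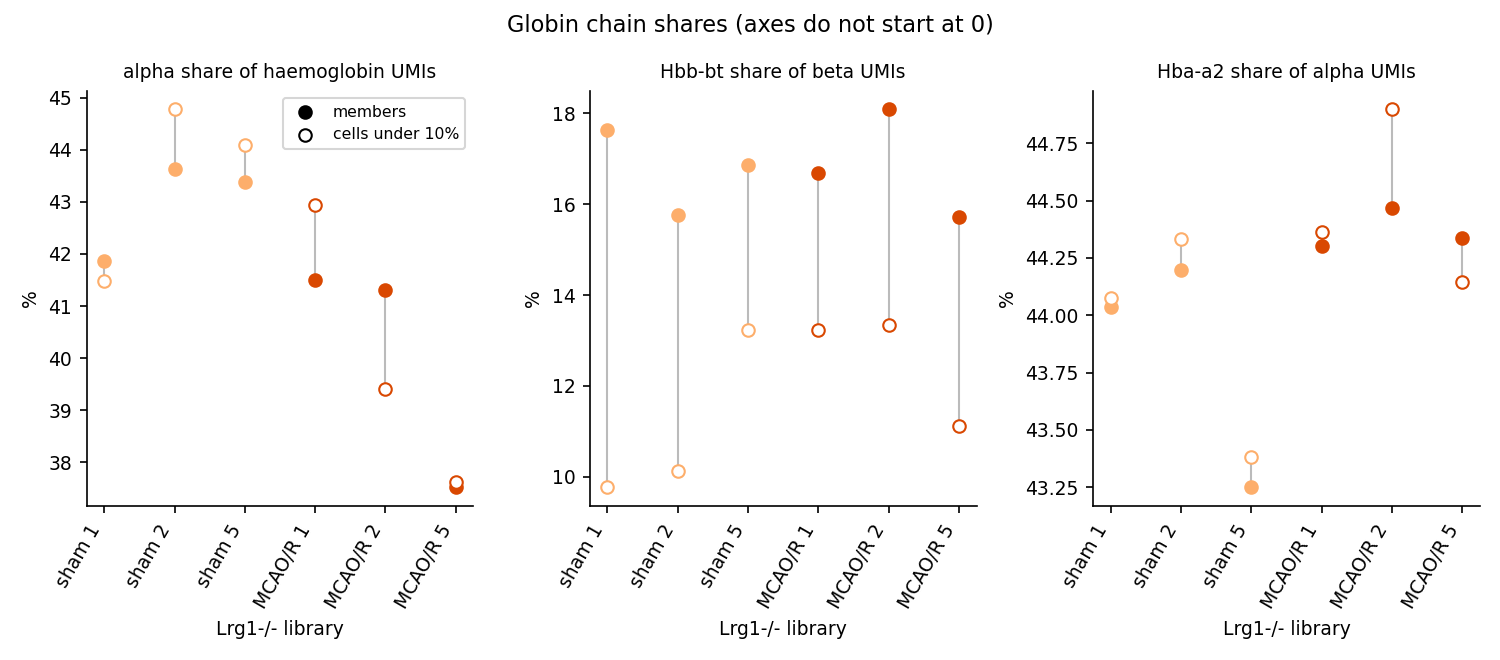
Shares of globin transcripts in members (filled) and in cells under 10% haemoglobin (open) of each Lrg1-/- library, in percent. The alpha share is lower in MCAO/R + Lrg1-/- replicate 5 than in the other members, and the Hbb-bt share of beta is higher in members than in other cells of every library.

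Surgery was compared within the knockout, on UMI counts summed over the members of each mouse and with the 4 haemoglobin genes and Alas2 taken out. Between MCAO/R + Lrg1-/- and sham + Lrg1-/-, 365 of 4979 genes tested (7.33%) changed at an adjusted p of 0.05 with a natural-log fold change of at least 0.25 (edgeR's quasi-likelihood test with Benjamini-Hochberg adjustment), 180 higher (3.62%) and 185 lower (3.72%). The median log2 fold change of all genes tested was 0.01. The libraries of the surgeries did not overlap for 1503 genes (30.2%). Each sham library carried weight: without replicate 1 of sham + Lrg1-/- the count was 115, without replicate 2 it was 66 and without replicate 5 it was 154, while leaving out an MCAO/R library gave 369 to 414. In the members of at least 65% haemoglobin, a setting chosen after the data were seen, 92 of 2679 genes changed.

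The erythroid lists were called at about the share of all genes. The 10 erythroid lists held 121 genes, of which 118 were measured and 63 were tested. Of these, 3 rose and 2 fell (7.94%, beside 7.33% of all genes), and their median log2 fold change was 0.31. By edgeR, the haem synthesis list had 0 of 3 tested genes called, membrane 0 of 8, organelle clearance 0 of 13, antioxidant genes 0 of 9, transcription factors 0 of 4, globins 0 of 2 and progenitor genes 0 of 2. At an unadjusted p under 0.05 in edgeR's test, 19 of the 63 list genes passed (30.2%), among them 1 of haem synthesis, 1 of membrane, 2 of organelle clearance and 4 antioxidant genes, beside 1279 of all 4979 (25.7%). DESeq2 called 6 of 81 list genes, among them 1 of 9 antioxidant genes and none in the haem, membrane, clearance, transcription factor, globin or progenitor lists, and 395 of 8467 genes in all.

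The genes that rose were the ferritins and a glycolytic enzyme. Fth1, the ferritin heavy chain, was at 9431, 7100 and 7343 TMM-scaled CPM (counts per 1,000,000, scaled between libraries by edgeR's TMM method) in sham members and at 11,670, 15,619 and 18,160 in MCAO/R members, with a log2 fold change of 0.93 ± 0.20 (SE) and an adjusted p of 0.0217. Ftl1, the light chain, was at 6103, 5244 and 6004 against 9332, 12,657 and 9459, with a log2 fold change of 0.86 ± 0.18. Gapdh, whose median ratio of members to other cells was 0.856, was at 867, 639 and 1042 against 1775, 1498 and 1303, with 0.84 ± 0.22. All MCAO/R libraries exceeded all sham libraries for these 3 genes, which are active in nearly every cell type, and in cells under 10% haemoglobin the log2 fold changes were 0.98, 1.39 and 0.65. In members of at least 65% haemoglobin the changes of Fth1, Ftl1 and Gapdh did not pass, at log2 values of 0.61, 0.34 and 0.82. At 75% haemoglobin Fth1 (0.54) and Ftl1 (0.19) did not pass either, while Gapdh did, at 1.09 (adjusted p = 0.0232), as it did in members with at most 1000 genes (1.10), where Fth1 (0.50) and Ftl1 (0.18) did not. With members thinned to 1000 UMIs none of the 3 passed (0.71, 0.60 and 0.67). Gapdh did not pass with high doublet scores removed (0.80) or with shared barcodes removed (0.83). Leaving out single libraries ended these calls too: Fth1 was at 0.82 without sham + Lrg1-/- replicate 2 and 0.88 without replicate 5, and Ftl1 at 0.90, 0.76 and 0.89 without sham replicates 1, 2 and 5. Gapdh was at 0.86, 0.65 and 1.02 without those sham replicates and at 0.74 and 0.85 without MCAO/R + Lrg1-/- replicates 1 and 2.

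The genes that fell were Slc40a1, the iron exporter ferroportin, and Bsg, basigin, a membrane glycoprotein of red cells and of brain endothelium. Neither stood above other cells in members, with median ratios of 0.618 for Slc40a1 and 0.864 for Bsg. The part of other cells' RNA in their changes was not tested. Slc40a1 was at 38.0, 55.0 and 113 TMM-scaled CPM in sham and 23.1, 18.8 and 10.9 in MCAO/R members, a log2 fold change of -2.04 ± 0.46 (adjusted p = 0.0235). Bsg was at 3114, 5734 and 5383 against 1978, 2334 and 1096, a log2 fold change of -1.40 ± 0.30 (adjusted p = 0.0218). The surgeries did not overlap for either gene, and their log2 fold changes in cells under 10% haemoglobin were -1.49 and -1.44. Without sham + Lrg1-/- replicate 2 or 5 neither gene passed, at -2.19 or -1.46 for Slc40a1 and -1.26 or -1.29 for Bsg, and Bsg did not pass in members of at least 65 or 75% haemoglobin (-1.18 and -1.04) or with at most 1000 genes (-1.09).

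Several genes that stood far above other cells did not pass this test. Bpgm was at 5930, 3552 and 4735 TMM-scaled CPM in sham and 6769, 9557 and 6278 in MCAO/R members, without overlap, and its log2 fold change was 0.67 ± 0.23 (adjusted p = 0.0957). Mkrn1 had 0.42 ± 0.24 and Slc4a1 0.51 ± 0.33, with overlapping surgeries. Gpx1 had 0.93 ± 0.31 (adjusted p = 0.09) and Trim10 1.09 ± 0.42 (adjusted p = 0.135).

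The genes with the largest called changes, taken 10 each way among those whose surgeries did not overlap, included none of the erythroid lists. At least 2 microglia markers were seen in 3713 of the 3729 members, and the part of other cells' RNA in these changes was not tested. Spp1, osteopontin, was at 6.91, 55.0 and 19.5 TMM-scaled CPM in sham and 775, 8100 and 1833 in MCAO/R members, a log2 fold change of 7.10 ± 0.96 (adjusted p = 0.00403). Spp1 rose less in members than in cells under 10% haemoglobin, with a log2 difference of changes of -2.46. That difference was not called without sham + Lrg1-/- replicate 2. Serpina3n, an acute-phase protease inhibitor, had 0 UMIs in the 3 sham libraries and 33, 489 and 77 in the MCAO/R libraries (152, 183 and 76.6 TMM-scaled CPM). Pooled over each group it was at least 39.9-fold higher, against a floor of 3 counts over the sham group. This bound leans on MCAO/R + Lrg1-/- replicate 2, which gave 489 of the 599 UMIs. Lpl, lipoprotein lipase, was at 17.3, 12.7 and 11.7 against 281, 347 and 160, and Lgals3, galectin-3, at 44.9, 21.1 and 15.6 against 318, 678 and 381. Ms4a6c, the inhibitory receptor Lilrb4a and Lcn2, a neutrophil and astrocyte lipocalin, had log2 fold changes of 4.73, 4.28 and 3.86. The last 3 of these 10 had 1 to 3 UMIs over all sham members, so pooled ratios are given with 95% exact intervals for counting error only. Msr1, a scavenger receptor, was 90.9-fold higher (16.2 to 3597), C4b, a complement component, 40.7-fold (7.23 to 1617) and Lilr4b, a receptor related to Lilrb4a, 21.04-fold (7.13 to 103). Single libraries moved several fitted log2 values by a factor above 1.5 in fold: Spp1 was at 8.08 without sham + Lrg1-/- replicate 2 and 5.65 without MCAO/R + Lrg1-/- replicate 2, Lcn2 at 6.35 without sham + Lrg1-/- replicate 5 and 2.62 without MCAO/R + Lrg1-/- replicate 2, and Lilrb4a at 5.17 and Lgals3 at 4.66 without sham + Lrg1-/- replicate 1. The genes of 1 to 3 sham UMIs moved further. Msr1 went from 6.20 to 9.54 without sham + Lrg1-/- replicate 2. C4b went from 5.24 to 8.57 without replicate 1 of that group, and Lilr4b from 4.04 to 8.84 without its replicate 5. Lcn2 and Lilr4b lost their calls without sham + Lrg1-/- replicate 1 (log2 values 3.40 and 3.39) or replicate 2 (3.30 and 3.49), and Lcn2 also with DESeq2 (3.85, adjusted p = 0.16) and in members with at most 1000 genes (4.05).

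The lower genes included vascular ones. Cxcl12, a chemokine of brain vessels, was at 156, 533 and 683 TMM-scaled CPM in sham and 73.8, 48.0 and 12.9 in MCAO/R members, a log2 fold change of -3.52 ± 0.61. Slc2a5, a fructose transporter of microglia, was at 96.8, 114 and 66.4 against 4.61, 8.63 and 20.9, with -2.88 ± 0.43. Car4, Itm2a and Pltp, known in brain endothelium, and Pln and Myl9, of smooth muscle, had log2 fold changes from -3.08 to -2.48, and Lysmd4, Rasl11a and Gm46367 had -3.29, -2.60 and -2.50. Jun, an immediate early factor, was at 3013, 2774 and 2678 against 922, 1134 and 1281, with -1.34 ± 0.19, and Junb (-1.08) and Fosb (-0.89) fell as well. The list of immediate early and heat shock genes had a median of -0.82 in members and -0.75 in cells under 10% haemoglobin. Without MCAO/R + Lrg1-/- replicate 2 Car4 was at -5.00 and Itm2a at -3.39, and without sham + Lrg1-/- replicate 5 Myl9 was at -1.79. Without sham + Lrg1-/- replicate 2 the calls of Cxcl12 (-3.40), Car4 (-2.83), Itm2a (-2.42), Gm46367 (-2.26) and Fosb (-0.89) were lost. Car4 (-2.90), Itm2a (-2.59), Junb (-0.91) and Fosb (-0.81) did not pass without replicate 5, Gm46367 (-2.56) and Fosb (-0.98) without replicate 1, and Fosb (-0.68) without MCAO/R + Lrg1-/- replicate 1. Cxcl12 was at -2.39 in members of at least 65% haemoglobin, where Itm2a (-2.08), Rasl11a (-1.86) and Fosb (-0.95) did not pass. At 75% Itm2a (-1.72), Fosb (-0.94) and Junb (-0.99) did not, nor with at most 1000 genes (-1.61, -0.97 and -0.97), and Itm2a (-2.22) and Fosb (-0.78) were also lost after thinning to 1000 UMIs. Car4 and Lysmd4 were tested in none of these settings. Cxcl12, Slc2a5 and Pln were tested at 65% but not at 75%, with at most 1000 genes or after thinning. Ribosomal protein genes had 7 of 81 called, all higher (8.64%, beside 3.62% of all genes called higher), with a list median of 0.32 beside 0.01 over all genes. An unadjusted p under 0.05 was reached by 40.7% of them and by 25.7% of all genes, and the surgeries did not overlap for 48 of the 81, beside 30.2% of all genes. In cells under 10% haemoglobin the list median was 0.27, with 4 of 83 called higher, beside 987 of 18,942 genes. The difference of changes between members and these cells was called for 0 of 83.

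**Figure D5:**
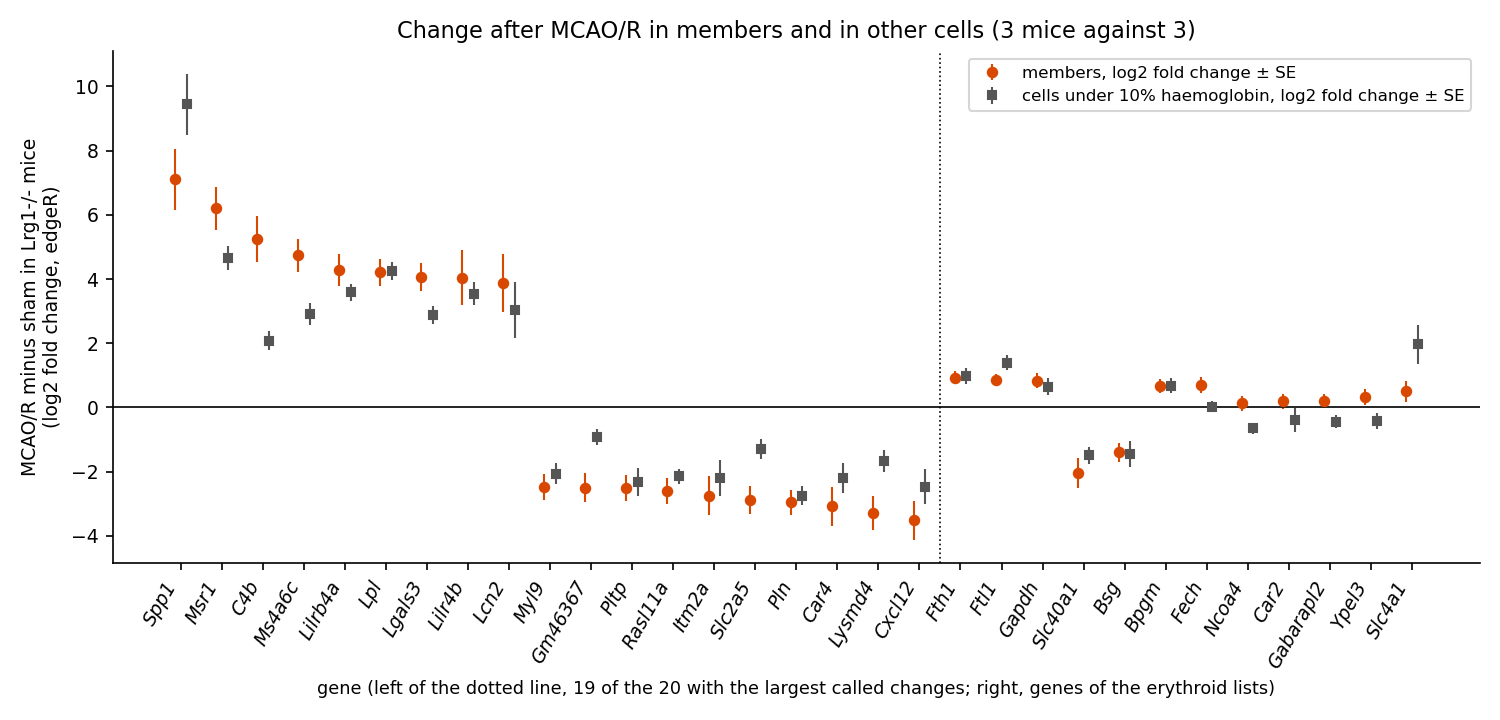
Log2 fold change (MCAO/R minus sham in Lrg1-/-, ± SE, 3 mice against 3) in members (circles) and in cells under 10% haemoglobin (squares). Left of the dotted line are 19 of the 20 genes with the largest called changes, without Serpina3n, which had 0 UMIs in sham members, and right of it are genes of the erythroid lists. The left genes were chosen for their size of change, so their distance from 0 is not compared with that of the right ones.

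Some markers of other cell types changed in members as well, while the sums of the microglia, endothelial and neutrophil lists overlapped between surgeries. Microglia markers made up 1.02 to 1.24% of non-haemoglobin UMIs in sham and 1.004 to 1.58% in MCAO/R members, with P2ry12, a homeostatic microglial receptor, the only 1 of 9 called (log2 fold change -2.36). Endothelial markers were at 0.220 to 0.543% and 0.0620 to 0.263%, with 2 of 6 lower, beside 3.72% of all genes. Choroid plexus markers were at 4.11 to 5.002% and 1.55 to 3.30%, with 2 of 5 lower, and mural markers at 0.112 to 0.332% and 0.0450 to 0.0571%, with 2 of 4 tested lower, and neither sum overlapped between surgeries. Neutrophil markers were at 0.0154 to 0.0258% and 0.00683 to 0.248%, with S100a9 called higher, although it was at 67.6, 47.5 and 104 unscaled CPM in sham and 32.2, 750 and 1230 in MCAO/R members, so that MCAO/R + Lrg1-/- replicate 1 lay below every sham library. Of oligodendrocyte markers 2 of 6 were higher, as was the neuronal marker Tubb3, beside 3.62% of all genes. Of all marker lists only the B cell marker Ms4a1 was at 0 over all members, and the part of this RNA in the changes of members was not tested. In cells under 10% haemoglobin, 1622 of 18,942 genes changed (8.56%).

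Whether members changed otherwise than the remaining cells was tested as the difference of the changes, a test added after the data were seen. Both changes come from the same 6 mice. It called 159 of 16,611 genes (0.957%), 45 with a higher change in members and 114 with a lower one. Of 105 erythroid-list genes tested, 5 were higher and 1 was lower, and the median difference was 0.25. Ncoa4 had log2 fold changes of 0.13 in members and -0.65 in other cells, and the joint fit of both kinds of cell, which gives all differences here, put the difference at 0.91 ± 0.23 (adjusted p = 0.0124). Car2, carbonic anhydrase II, Gabarapl2, Ypel3 and Fech had differences of 0.87, 0.80, 0.89 and 0.76, and none of them was called in members or in other cells alone. Slc4a1 had log2 fold changes of 0.51 in members and 1.97 in other cells, where it was at 0.0497 to 0.936 unscaled CPM, a difference of -1.46 ± 0.38 (adjusted p = 0.0189).

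These differences depended on the libraries and on the border of the member set. The count of 159 was 47 without sham + Lrg1-/- replicate 1, 91 without its replicate 2, 472 without MCAO/R + Lrg1-/- replicate 1, 30 without its replicate 2 and 21 without its replicate 5. It was 28 in members of at least 65% haemoglobin and 45 with high doublet scores removed. In members of at least 65% haemoglobin, the calls of Ncoa4 (0.45), Car2 (0.53), Gabarapl2 (0.50), Ypel3 (0.62) and Fech (0.39) were lost and that of Slc4a1 (-1.94) was not. Without MCAO/R + Lrg1-/- replicate 2, all 6 calls were lost, with differences of 0.74, 0.41, 0.53, 0.38, 0.41 and -1.68. Without sham + Lrg1-/- replicate 2 all 6 were lost as well, at 0.81, 0.83, 0.72, 0.84, 0.69 and -1.18. Without MCAO/R + Lrg1-/- replicate 5, Ncoa4 (0.98), Car2 (0.96), Gabarapl2 (0.80) and Slc4a1 (-1.01) did not pass. Without sham + Lrg1-/- replicate 1, Car2 (0.85), Gabarapl2 (0.88), Ypel3 (0.98), Fech (0.82) and Slc4a1 (-1.26) did not pass, and without its replicate 5 Gabarapl2 (0.80), Ypel3 (0.84) and Fech (0.76) did not.

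Haemoglobin-rich cells without an Alas2 UMI were the nearest neighbours outside the set. In MCAO/R + Lrg1-/- replicates 2 and 5, which held 30 and 42 of these 106 cells, Bpgm had 9880 and 6685 TMM-scaled CPM in members and 1019 and 1080 in the cells without Alas2. Alas2 divided these cells and members were deeper, so the rule and depth shaped this contrast and nothing is read from its fit. That fit, with 1 residual degree of freedom, called 91 of 7479 genes higher in members (1.22%) and 1, Grwd1, lower, against 0 of 530 when members were drawn to the same number and total UMIs (edgeR, with 16 at an unadjusted p under 0.05). Of the called genes, only 31 were tested after this matching, and 26 of them kept their sign. Their median log2 difference was 0.50 after matching and 1.77 before, so the 2 counts are not comparable.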

How the data were processed

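Brain suspensions of 11 mice were profiled with a 10x Genomics 3′ kit. For each gene and barcode, the authors deposited unnormalised UMI counts, made with Cell Ranger 7.0.1 per the matrix headers; the submitters' processing notes also name STAR and the mm10 build. Libraries held 37,159,497 to 171,813,031 UMIs and 5650 to 36,858 barcodes. In 4 Lrg1-/- libraries the barcode number was round (15,500, 9000, 5650 and 8500); whether it was preset is not given in the sources used here, and the shares of members in these libraries rest on those barcodes.

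The cell limits followed the study's methods. The members, gene lists and several tests were chosen with earlier results of these data known. Named genes were all those of the lists, up to 10 called genes higher and 10 lower with the largest changes among those whose libraries did not overlap, and the 20 genes with the highest share of non-haemoglobin UMIs; some list genes are not reported here. Doublets were scored by simulation and kept, and the 6% highest scores of each library were removed as an alternative.

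Counts were summed over the members of each mouse with at least 20 members, without the 4 haemoglobin genes and Alas2, and tested with edgeR 4.0.16 (filterByExpr, TMM, quasi-likelihood, Benjamini-Hochberg) in R 4.3.3. DESeq2 1.42.0 was an alternative. The difference of changes compared members with cells under 10% haemoglobin of the same mice, with the library as a block. Globin shares are described, since the rule used those genes, and the planned exact permutation tests of them are not reported. Exact binomial intervals are from scipy 1.17.1. Contrasts with WT members, of which a library held at most 2, could not be fitted. P-values measure the spread between mice. The edgeR fits of surgery, of the difference of changes and of members against cells without Alas2 were checked on simulated counts. Coordinates are from GENCODE M21 (GRCm38), promoter windows from RefSeq.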

Additional observations from a re-analysis of the deposited data

Results flagged for a closer look

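The change between MCAO/R + Lrg1-/- and sham + Lrg1-/- differed between members and cells under 10% haemoglobin for 159 genes, by the test of the difference itself (edgeR, with the library as a block, chosen after the data were seen). Among the erythroid genes, the log2 difference of changes (members minus other cells) was 0.867 for Car2, 0.758 for Fech, 0.804 for Gabarapl2, 0.912 for Ncoa4, 0.889 for Ypel3 and -1.46 for Slc4a1. Among the genes with the largest changes, Spp1 rose less in members than in other cells, with a difference of -2.46. The call of Spp1 was lost without sham + Lrg1-/- replicate 2 (-1.66).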

How the results depend on the processing

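The number of genes changed by surgery in members, 365, ranged from 66 to 414 when single libraries were left out. It was 972 with no filter on low counts, 57 with members thinned to 1000 UMIs, 75 in members of at least 75% haemoglobin and, by alternatives chosen after the data were seen, 92 at 65% and 80 in members with at most 1000 genes; fewer genes were tested in the last 4. Without the filter, 583 were higher and 389 lower, against 180 and 185. The replicate numbers did not pair the mice (correlations of -0.059, 0.109 and -0.069 for replicates 1, 2 and 5), and with a replicate block 443 genes were called. The difference of changes, 159 genes, was 28 at 65% haemoglobin, 21 with at most 1000 genes and 45 with doublets removed, and 21 to 472 without single libraries; its split was 45 higher and 114 lower, but 38 and 164 with DESeq2 size factors, 8 and 13 with at most 1000 genes, 19 and 26 with doublets removed, 244 and 228 without MCAO/R + Lrg1-/- replicate 1 and 13 and 8 without its replicate 5. Members against cells without Alas2, a contrast shaped by the rule and by depth, gave 92 genes, 1 with no library block, 0 after matching and 39 by DESeq2. Single libraries could not be left out there. Members numbered 1832 in Lrg1-/- and 1 in WT at 75% haemoglobin, 8 in WT at 25%, and 5758 and 7 with more than 300 genes. Haemoglobin UMIs in WT cells other than members had a median of 0.0327% over libraries, and 0.0123% in those under 10%. The Hbb-bt difference, 0.0801 points, was -0.239 as a mean over cells and ranged from -0.547 to 0.632 without single libraries (-0.417 without sham + Lrg1-/- replicate 2). Of the alternatives for single genes, 534 kept direction and call, 119 lost the call and 0 reversed. These counts leave out alternatives in which a gene was not tested. The 534 include settings that could not differ from the main fit: at least 10 or at least 50 members per library, and only the 2 groups compared. Every fitted library held at least 107 members, so the 534 overstate how stable the calls were. Removing members with markers of another type left none, since all 3729 had at least 2.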
